A study of Saccharomyces cerevisiae with 96 samples.

Results

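The 33 genes described here encode the nuclear subunits of the yeast respiratory chain and of the ATP synthase. They were taken by name from the 6701 genes of the deposited table, by a rule that names the genes and uses no threshold on their values. There were 9 genes of the bc1 complex (COR1, QCR2, QCR6, QCR7, QCR8, QCR9, QCR10, RIP1 and CYT1), 7 of cytochrome oxidase (COX4, COX6, COX7, COX8, COX9, COX12 and COX13), 14 of the ATP synthase (ATP1, ATP2, ATP3, ATP4, ATP5, ATP7, ATP14, ATP15, ATP16, ATP17, ATP18, ATP20, TIM11 and the inhibitor INH1) and 3 NADH dehydrogenases (NDI1, NDE1 and NDE2). The cytochrome oxidase subunit 5 and cytochrome c genes are not among them. The expression profiles came from 12 wild type S. cerevisiae strains (YPS1009, T73, T7, Y12, YJM269, PW5, CLIB215, CLIB324, CBS7960, EC1118, BY4743 and SK1, numbered 1 to 12) and from the populations obtained by propagating each strain for 300 generations on xylulose. Each was grown to log phase in rich medium with glucose (YPD) or with xylulose (YP-xylulose), a pentose that budding yeast rarely meets in nature. The xylulose was made from xylose by an enzyme, and the medium also held the remaining xylose. The paper reports that no strain consumed this xylose. Its presence and the change of sugar cannot be told apart in the comparisons below. With 2 repeats this made 96 libraries, which the authors averaged into 48 columns of log2 RPM (reads scaled to a fixed library total of 1000000), 12 for each combination of sugar and evolution. An evolved population is a mixed culture and not a clone, so its values are averages over its cells.

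The respiratory chain of budding yeast passes electrons from NADH to oxygen and pumps protons out of the mitochondrial matrix, and the ATP synthase uses the returning protons to make ATP. This yeast lacks the proton-pumping NADH dehydrogenase of animals. In its place Ndi1 oxidizes NADH in the matrix and Nde1 and Nde2 oxidize cytosolic NADH from the outer face of the inner membrane, and all of them hand electrons to ubiquinone. The bc1 complex then passes them to cytochrome c and cytochrome oxidase passes them to oxygen. On glucose S. cerevisiae ferments and represses many of these genes, and the Hap2/3/4/5 complex, which binds CCAAT boxes, is a known activator of them when glucose does not repress respiration.

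The column labels were checked with auxotrophic markers. BY4743 is a laboratory strain that lacks LEU2 and URA3, and both genes were under 10 RPM in the wild type columns numbered 11 on both sugars. HIS3 was also examined and did not mark this strain, at 167.3 RPM on glucose and 133.5 RPM on xylulose in wild type number 11. Among the evolved columns LEU2 was under 10 RPM in number 7, not in number 11, and URA3 was 13.3 RPM there on glucose and under 10 RPM on xylulose. URA3 was also low in wild type number 12 (37.3 RPM on glucose, 25.8 on xylulose), which is SK1, and in evolved number 8 (42.7 and 31 RPM). The evolved columns from number 5 onward may therefore carry numbers that do not belong to the wild type strain of the same number, so evolved and wild type columns were compared as unpaired groups and evolved columns are named here only by their labelled number. The sugars were compared within a number, separately for wild type and for evolved columns. In 17 of the 48 columns the low values were whole multiples of 1 step, which corresponds to 253336 to 1114085 reads. In the other 31 the depth is unknown, since an average of 2 libraries need not show such a step. Whether a column with a step holds 1 library or an average of 2 cannot be told from the values. Such columns were most frequent in the wild type on glucose, and among evolved columns on xylulose only number 1 had a step. The shallowest of the 17 was wild type 7 on glucose, where 1 read is worth 3.95 RPM. There 6 of the 33 genes were blank, which is how the file marks a value under 10 RPM. A blank was set to 10 RPM, so that differences of genes near this floor are understated.

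All 33 genes matched a gene of the S288c annotation (R64). They lay on 12 chromosomes and none overlapped another annotated gene. QCR9 and QCR10 were the 2 with an intron. In the 500 bases upstream of the start codon, the CCAAT box (CCAAT on either strand) was found in 30 of the 33 genes (90.9%) against 62.4% of all 6006 windows of that length. The longer form ACCAATNA, which contains the shorter one, was found in 16 of the 33 (48.5%) against 8.59% of all windows. These were 3 genes of the bc1 complex, 4 of cytochrome oxidase, 7 of the ATP synthase, and NDI1 and NDE1. The end of the motif lay 95 to 343 bases from the start codon, with a median of 192, and 14 of the 16 sites lay between 120 and 250 bases. NDE2, CYT1 and COX4 had no CCAAT box in this window. A match is a description of the sequence and was not tested as a binding site. The sites below are shown as examples from all 4 groups, and they include the farthest (COR1, 343 bases) and the nearest (NDE1, 95 bases). Each is 30 bases of the R64 reference on the strand of the gene, with the motif in capitals.
COR1 (YBL045C), chrII:135849-135878, minus strand: acgctttctgcACCAATGAaatgccaataa
QCR7 (YDR529C), chrIV:1496712-1496741, minus strand: atcttgttttgACCAATCAggagcgacgcg
RIP1 (YEL024W), chrV:107001-107030, plus strand: ctccataacggACCAATCAgcgttttgcgc
COX6 (YHR051W), chrVIII:209477-209506, plus strand, motif on the opposite strand: gaaaagggaccTAATTGGTccggtcaaagc
COX12 (YLR038C), chrXII:225360-225389, minus strand: tcataacattgACCAATCAattttcagaaa
ATP3 (YBR039W), chrII:315368-315397, plus strand: cgtgatggagaACCAATGAgcggcgagtaa
ATP4 (YPL078C), chrXVI:408916-408945, minus strand: atcaatattgaACCAATCAcgacgcttttt
TIM11 (YDR322C-A), chrIV:1112420-1112449, minus strand, motif on the opposite strand: aatctccacgcTAATTGGTccgcggagcca
NDI1 (YML120C), chrXIII:30017-30046, minus strand: tattcattcggACCAATCAtatgaaggcat
NDE1 (YMR145C), chrXIII:556560-556589, minus strand: tattctggtaaACCAATTAaagagagaaaa
The Hap1 motif (CGGNNNTANCGG on either strand) was found upstream of 1 of the 33 genes, QCR6, which has it at 2 places, against 0.35% of all windows. The median log2 difference between xylulose and glucose in the wild type strains was 1.64 in the 16 genes with ACCAATNA and 1.85 in the other 17, and this difference was not tested.

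The first comparison asked how the sugar changes these genes in the wild type strains. On xylulose 32 of the 33 genes were higher than on glucose and none was lower. Of the 5129 genes tested 30.4% were higher and 483 genes were lower (limma on log2 RPM, paired by strain number, Benjamini-Hochberg adjusted over all genes, threshold 0.05). The median difference over the 33 genes was 1.80 on the log2 scale, or 3.47-fold, and the median over all genes tested was 0.31. Each of the 32 genes was called, and for 31 of them the difference was positive in all 12 strains. NDI1 was higher in 10 of 12 strains. For 26 of the 33 genes every xylulose column lay above every glucose column, which held for 2.59% of all genes tested. The evolved columns showed the same direction. There 32 of the 33 genes were higher on xylulose, against 24.1% of all genes tested, with a median of 1.87 (3.65-fold) beside 0.08 over all genes. NDE2 was lower, against 15.6% of all genes tested that were lower. For 28 of the 33 genes every evolved column on xylulose lay above every evolved column on glucose, against 3.55% of all genes. The order of the 33 genes by their sugar difference was alike in wild type columns and evolved columns (Pearson r = 0.86, Spearman rho = 0.66 over 33 genes), and without NDE2 r was 0.72. These genes share libraries, so the correlation is a description. All of these values are shares of the polyA-selected reads, so a change in the amount of an mRNA per cell and a change in the amount of all other mRNA cannot be told apart.

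**Figure D1:**
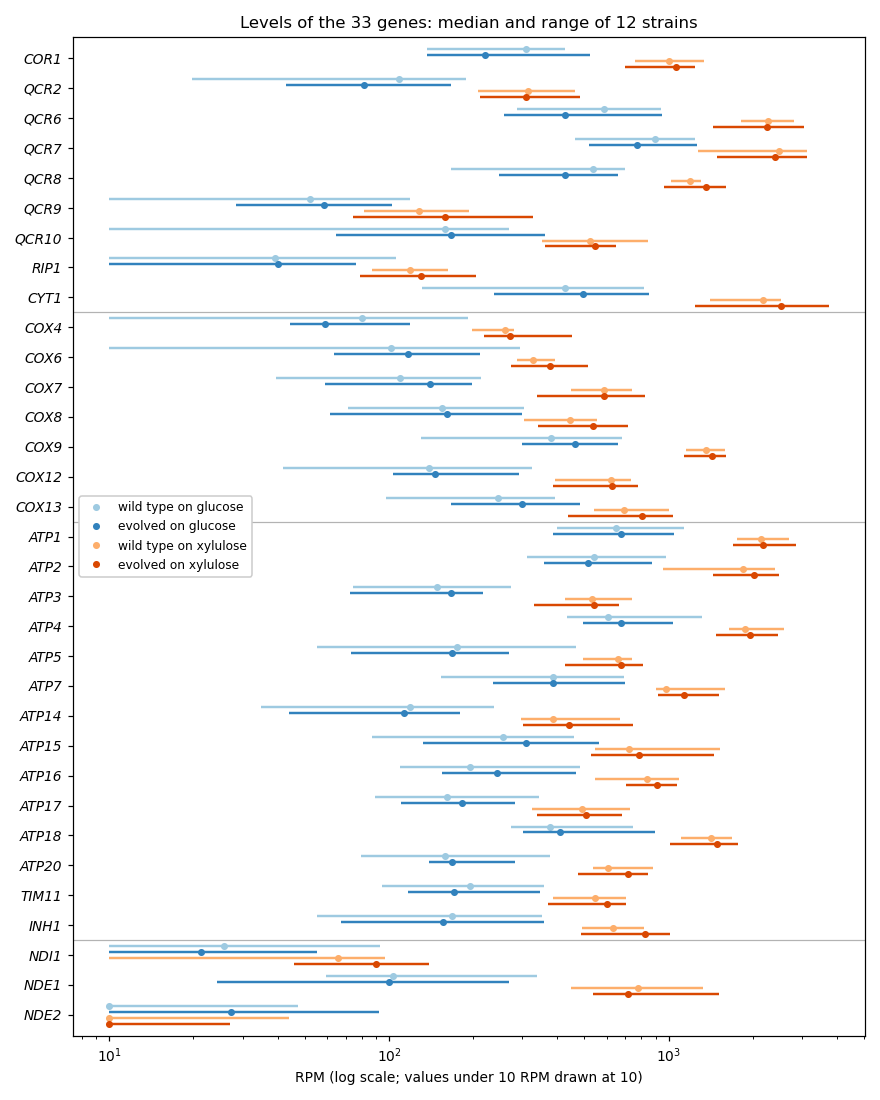
Level of each gene in RPM on a log axis, with the median (point) and the lowest to highest column (line) of 12 strains in each of 4 conditions. Grey lines separate the bc1 complex, cytochrome oxidase, the ATP synthase and the NADH dehydrogenases. The orange ranges on xylulose lie to the right of the blue ranges on glucose for nearly all genes, and for 26 of the 33 genes the wild type ranges do not touch.

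In the bc1 complex all 9 genes rose on xylulose in both comparisons, with medians of 1.81 in wild type columns and 1.87 in the evolved columns. CYT1 encodes cytochrome c1, the haem subunit that hands electrons to cytochrome c, and had the largest difference of the complex in the wild type strains. CYT1 was at 131 to 819 RPM on glucose with a median of 427, and at 1410 to 2513 RPM with a median of 2176 on xylulose, so the groups did not overlap. Its log2 difference was 2.37 ± 0.18 (SE, n = 12 strains, limma adjusted p = 1.95e-09). QCR8, a small subunit that contacts cytochrome b, had the smallest difference. Its 12 wild type columns ran from 166 RPM (EC1118) to 697 RPM (YJM269) with a median of 535 on glucose and from 1020 to 1310 RPM with a median of 1191 on xylulose. The difference was 1.38 ± 0.16 (SE, n = 12, limma adjusted p = 5.83e-07). The order changed somewhat in the evolved columns, where QCR6, the acidic subunit, was the largest and QCR9 the smallest. QCR6 ran from 258 to 949 RPM with a median of 425 on glucose and from 1438 to 3058 RPM with a median of 2249 on xylulose, a difference of 2.34 ± 0.13 (SE, n = 12, limma adjusted p = 2.2e-11). QCR9 ran from 28.4 to 103 RPM with a median of 58.5 on glucose and from 74.3 to 328 RPM with a median of 158 on xylulose. The groups overlapped for QCR9 although all 12 numbers were higher on xylulose, and the difference was 1.42 ± 0.18 (SE, n = 12, limma adjusted p = 1.84e-06). The core proteins COR1 and QCR2 and the Rieske iron-sulphur protein RIP1 lay between these ends in both comparisons. Their differences were 1.82, 1.80 and 1.81 in wild type columns and 2.10, 1.97 and 1.87 in the evolved columns. QCR7 and QCR10, small subunits of the complex, rose by 1.5 and 2.17 in the wild type strains and by 1.6 and 1.69 in the evolved populations, and QCR10 was blank in wild type 7 on glucose, where the other 11 strains held 50.7 to 269 RPM.

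All 7 cytochrome oxidase genes also rose, with medians of 1.89 in wild type columns and 1.75 in the evolved columns. COX7 had the largest difference in both. In the wild type strains COX7 was at 39.5 RPM in CLIB215 and 214 RPM in YPS1009 on glucose, with a median of 110, and on xylulose it was at 449 to 738 RPM with a median of 588. The groups did not overlap, and the difference was 2.40 ± 0.18 (SE, n = 12, limma adjusted p = 1.76e-09). In the evolved columns it ran from 59.0 to 198 RPM with a median of 141 on glucose and from 338 to 826 RPM with a median of 590 on xylulose, a difference of 2.22 ± 0.14 (SE, n = 12, limma adjusted p = 5.92e-11). COX8 had the smallest difference in the wild type strains, from a median of 155 RPM (71.3 to 304) on glucose to 445 RPM (305 to 555) on xylulose, or 1.54 ± 0.19 (SE, n = 12, limma adjusted p = 1.22e-06). The highest glucose value, 304 RPM in YJM269, lay just under the lowest xylulose value, 305 RPM in YPS1009. COX13, which encodes subunit VIa, had the smallest difference in the evolved columns. It rose from a median of 300.0 RPM (166 to 480) to 805 RPM (439 to 1035), or 1.30 ± 0.13 (SE, n = 12, limma adjusted p = 5.43e-08), and the groups overlapped. COX9 and COX12, small subunits encoded in the nucleus, rose by 1.89 and 2.08 in the wild type strains and by 1.67 and 1.88 in the evolved populations. COX9 was at 130 to 679 RPM on glucose and at 1156 to 1589 RPM on xylulose in the wild type strains, and its SD on xylulose was 0.14 on the log2 scale in both wild type and evolved columns. COX4 and COX6 were blank in wild type 7 on glucose, so their wild type differences of 1.81 and 1.89 include a value set to the floor.

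The 14 ATP synthase genes rose as well, with medians of 1.77 in wild type columns and 1.84 in the evolved columns, and they had the narrowest range of the 3 complexes in the wild type strains, from 1.45 to 1.97. The large subunits of the F1 head followed the group. ATP1, the alpha subunit, went from a median of 648 RPM (401 to 1136) to 2132 RPM (1759 to 2690) in the wild type strains, and ATP2, the beta subunit, from 542 RPM (313 to 976) to 1841 RPM (957 to 2407). The groups did not overlap for ATP1 and overlapped for ATP2. ATP16, the delta subunit of the central stalk, had the largest wild type difference, from a median of 195 RPM (109 to 482) to 839 RPM (547 to 1085), or 1.97 ± 0.20 (SE, n = 12, limma adjusted p = 1.24e-07). ATP4, subunit b of the peripheral stalk, had the smallest, from a median of 607 RPM (432 to 1317) to 1874 RPM (1642 to 2584), or 1.45 ± 0.13 (SE, n = 12, limma adjusted p = 1.64e-08). Among the evolved columns the smallest was ATP17, subunit f, from 183 RPM (110 to 282) to 508 RPM (340 to 682), or 1.46 ± 0.12 (SE, n = 12, limma adjusted p = 4.26e-09). The other parts of the central stalk, ATP3 (gamma) and ATP15 (epsilon), rose by 1.90 and 1.72 in the wild type strains and by 1.91 and 1.47 in the evolved populations. ATP15 was highest in EC1118 among the wild type strains on both sugars, at 460 RPM on glucose and 1529 RPM on xylulose, and in evolved number 6 on both sugars, at 565 and 1449 RPM. The other peripheral stalk genes, ATP5 (the oligomycin sensitivity subunit), ATP7 (subunit d) and ATP14 (subunit h), rose by 1.77, 1.49 and 1.77 in the wild type strains and by 1.93, 1.5 and 2.09 in the evolved populations. ATP18, a small membrane subunit, rose by 1.85 and by 1.69.
INH1 encodes the small protein that blocks ATP hydrolysis by the enzyme when the proton gradient collapses. Although it inhibits the enzyme, INH1 moved in the same direction as the subunits. In the wild type strains INH1 was at 55.3 RPM in CLIB215 and 353 RPM in YPS1009 on glucose, with a median of 168, and at 489 to 814 RPM with a median of 635 on xylulose. The difference was 1.95 ± 0.21 (SE, n = 12, limma adjusted p = 2.1e-07). In the evolved columns it had the largest difference of the ATP synthase genes, from a median of 157 RPM (67.7 to 358) to 822 RPM (486 to 1010), or 2.36 ± 0.16 (SE, n = 12, limma adjusted p = 2.79e-10). TIM11 and ATP20, subunits e and g, which are needed for the enzyme to form dimers, rose by 1.51 and 1.85 in wild type columns and by 1.68 and 1.90 in the evolved columns.

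**Figure D2:**
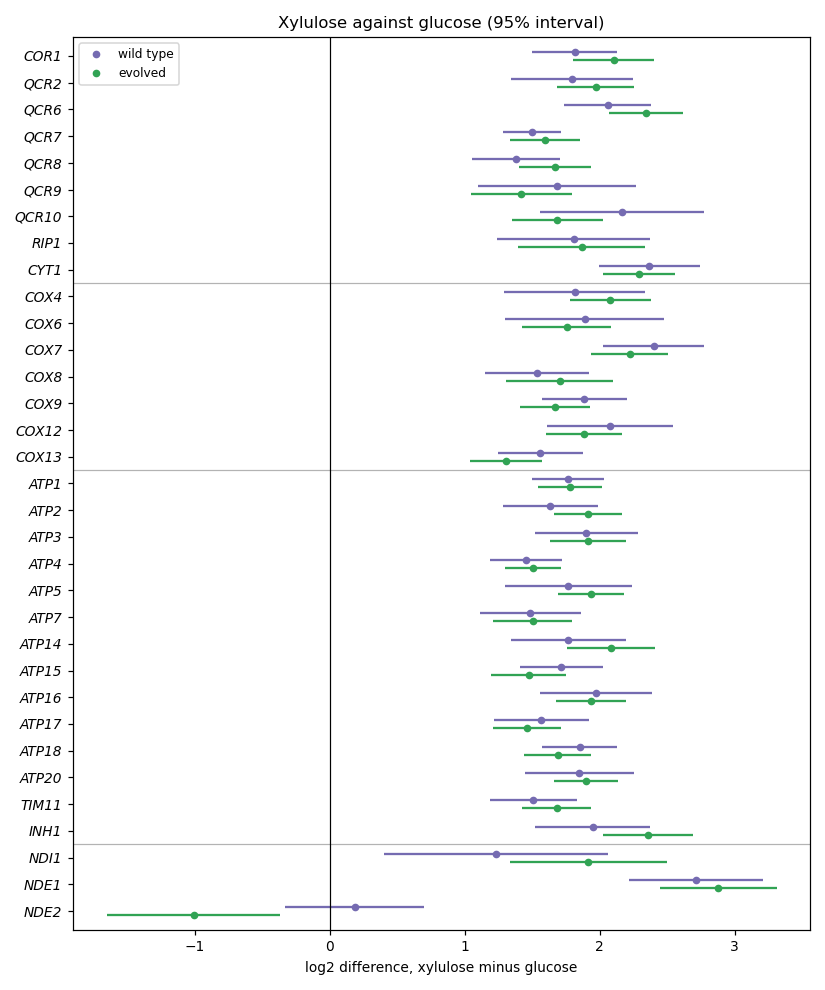
Log2 difference between xylulose and glucose for each gene, in the 12 wild type strains (purple) and the 12 evolved populations (green), with points at the mean difference and lines for the 95% interval of limma's fit. NDE1 lies farthest to the right in both, at 2.71 and 2.88, and NDE2 is the gene whose points lie apart from the rest, at 0.18 and -1.01.

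The 3 NADH dehydrogenases did not move alike. NDE1 had the largest difference of all 33 genes in both comparisons. In the wild type strains it ran from 59.4 RPM (CLIB324) to 338 RPM (CBS7960) with a median of 103 on glucose and from 450 RPM (YJM269) to 1322 RPM (CLIB215) with a median of 779 on xylulose. The groups did not overlap, and the difference was 2.71 ± 0.24 (SE, n = 12, limma adjusted p = 1.48e-08), or 6.57-fold. The evolved columns of NDE1 ran from 24.3 to 269 RPM with a median of 101 on glucose and from 539 to 1515 RPM with a median of 718 on xylulose, a difference of 2.88 ± 0.21 (SE, n = 12, limma adjusted p = 5.71e-10). NDI1 was low on glucose, where it was blank in 5 of 12 wild type and 4 of 12 evolved columns. The other wild type columns on glucose held 18.9 to 92.6 RPM, the highest in T7. On xylulose NDI1 was blank in wild type 1 and was between 20.2 and 97.0 RPM in the other 11 wild type columns, with a median of 65.6 over all 12, and was between 45.9 and 139 RPM in the evolved columns. The difference was 1.23 ± 0.40 (SE, n = 12, limma adjusted p = 0.0182) in wild type columns and 1.92 ± 0.28 (SE, n = 12, limma adjusted p = 1.09e-05) in the evolved columns. Where blanks were left missing, the wild type difference of NDI1 was 0.37 with an adjusted p of 0.505, and T7 alone went from 92.6 RPM on glucose to 20.2 RPM on xylulose.
NDE2, the paralog of NDE1, was near the floor throughout. How reads that match both paralogs were assigned is not given in the sources used here. It was above 10 RPM in 4 of 12 wild type columns on glucose (14.1 RPM in YPS1009, 29.8 in Y12, 47.3 in YJM269 and 14.9 in SK1) and in 5 of 12 on xylulose (33.3 RPM in YPS1009, 44.0 in T7, 41.3 in YJM269, 14.6 in CBS7960 and 15.5 in SK1). The wild type difference was 0.18 with a 95% interval from -0.33 to 0.70 (limma adjusted p = 0.583, n = 12). Among the evolved columns on glucose NDE2 was above 10 RPM in 7 of 12, at 21.8 to 91.9 RPM, and on xylulose in 4 of 12, at 12.9 to 27.1 RPM. This gave a difference of -1.01 ± 0.31 (SE, n = 12, limma adjusted p = 0.0131), lower on xylulose in 7 of the 12 numbers and higher in 1. The 7 include number 2, which was nearly equal at 21.83 RPM on glucose and 21.8 RPM on xylulose. They also include numbers 3, 8, 10 and 11, where the xylulose column was blank and set to 10 RPM. The call was lost with a pseudocount of 1 and where blanks were left missing (adjusted p = 0.131 and 0.185).

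**Figure D3:**
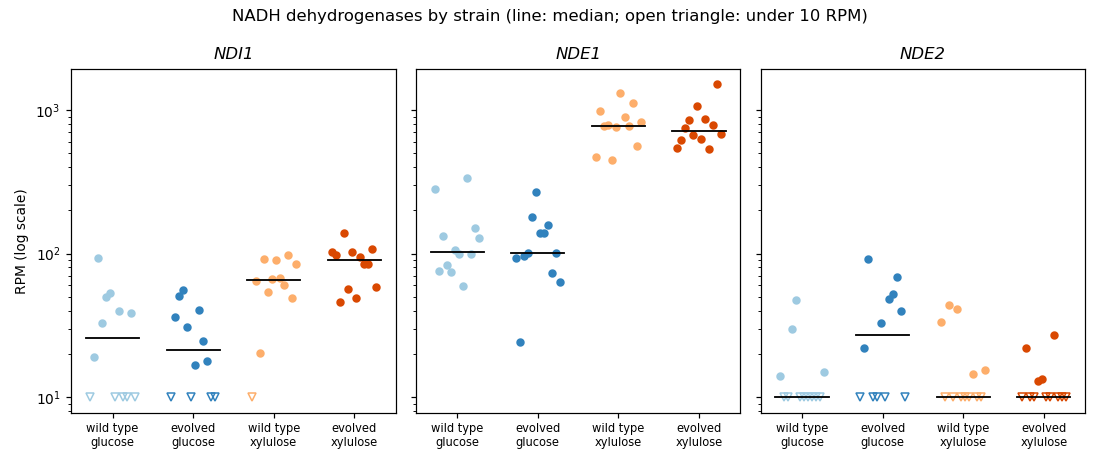
NDI1, NDE1 and NDE2 in every column, in RPM on a log axis, with 12 points for each of 4 conditions, a black line at the median and open triangles for columns under 10 RPM. NDE1 on xylulose (450 RPM and above) lies above all its glucose points (338 RPM and below), while NDE2 reaches 91.9 RPM at most.

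The level of the 33 genes had a wider range between strains on glucose than on xylulose. The mean log2 RPM over the 33 genes ran from 6.44 (CLIB215) to 8.17 (YJM269) in the wild type columns on glucose, a 3.34-fold range, and from 8.97 (YPS1009) to 9.39 (EC1118) on xylulose, a 1.34-fold range. In the evolved columns the range was 6.94 to 8.16 on glucose and 8.84 to 9.55 on xylulose. Single genes showed the same. The SD over 12 wild type columns was smaller on xylulose than on glucose for 32 of the 33 genes, beside 83.3% of all genes tested. The median ratio of the SDs was 2.66 over the 33 genes and 1.52 over all genes. Without number 7, whose wild type column on glucose was the shallowest of known depth, it was 2.53 and 1.48. Among the 26 of the 33 genes that were never blank it was 2.59, beside 1.42 over the 2528 genes of the table that were never blank. For evolved columns the SD was smaller on xylulose for all 33 genes, beside 82.6% of all genes tested, and the median ratio was 1.78 beside 1.5. The difference between 33 genes and all genes in this ratio was described and not tested. Blank genes among the 6701 numbered 1680 (CLIB324) to 2766 (CLIB215) in wild type columns on glucose and 1531 (CBS7960) to 1822 (CLIB324) on xylulose. In evolved columns they numbered 1359 to 2117 and 1584 to 1785. The 33 genes were also lower on glucose (mean 7.44 against 9.20 in wild type columns), and all genes were not matched to them in level. A part of coverage, of level or of the number of libraries in a column in the wider range on glucose was not tested.
High and low columns on glucose were shared between the complexes. YPS1009 held the highest wild type glucose value for 12 of the 33 genes and YJM269 for 10. CLIB215 held the lowest for 13 of the 31 genes with a single lowest column, EC1118 for 7 and SK1 for 6. The depth read from the steps was 253336, 571610 and 402628 reads in these columns. Among the high columns it was 639461 reads in YPS1009 and 335409 reads in Y12, which was highest for 5 genes, and it is unknown in YJM269. A part of depth in this order was not tested. Among the evolved columns number 9 was highest on glucose for 16 of the 33 genes, and numbers 1 and 5 were lowest for 9 genes each. Over the 12 wild type glucose columns the mean of the bc1 genes followed that of the cytochrome oxidase genes with r = 0.93 (rho = 0.76) and that of the ATP synthase genes with r = 0.80 (rho = 0.87). The cytochrome oxidase and ATP synthase means had r = 0.74. On xylulose, where the range was narrow, the 3 values in the same order were 0.63, 0.22 and 0.77. In evolved columns they were 0.61, 0.80 and 0.78 on glucose and 0.86, 0.65 and 0.74 on xylulose. These correlations are descriptions over columns that share their depth between the genes.
The sugar difference varied between strains as well. Each strain had 1 averaged column for each sugar, so strain cannot be told apart from culture or library. The median difference over the 33 genes was smallest in YPS1009 (0.89), YJM269 (1.03) and T7 (1.35), and largest in EC1118 (2.62), CLIB215 (2.49) and T73 (2.24). In every wild type strain 32 or 33 of the genes were higher on xylulose. In the evolved columns the median difference ran from 1.27 in number 9 to 2.25 in number 4, and 31 to 33 genes were higher.

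**Figure D4:**
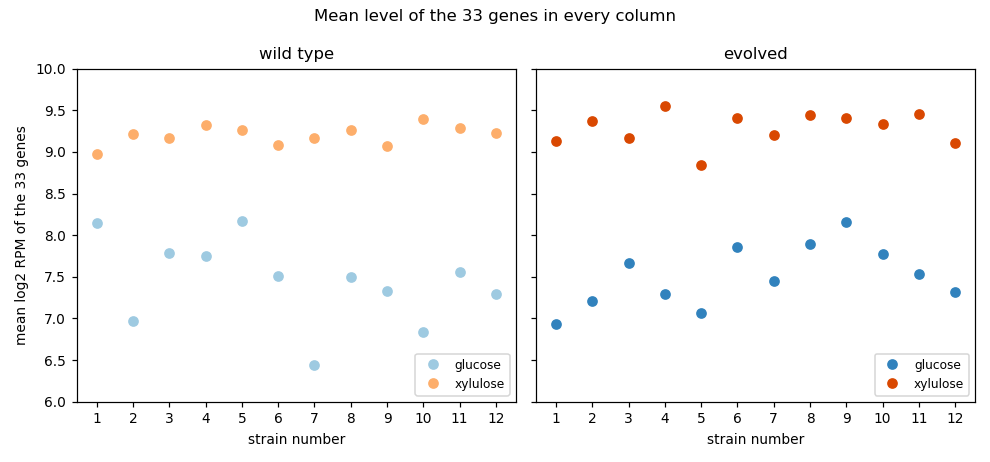
Mean log2 RPM of the 33 genes in every column, by strain number, for wild type (left) and evolved (right) columns on glucose (blue) and xylulose (orange). The glucose points spread from 6.44 to 8.17 in the wild type strains, while the xylulose points lie between 8.97 and 9.39.

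The next comparisons asked whether evolution on xylulose changed these genes. On xylulose 0 of the 33 genes differed between evolved and wild type columns, where 1.58% of all genes tested did (limma, 12 against 12 columns). The median difference was 0.06, with 26 genes above 0 and 7 below, and 2 genes, INH1 and COX6, had an unadjusted p under 0.05. For 32 of the 33 genes the 95% interval excluded a change of 2-fold in either direction, and for 30 it excluded a change of 1.5-fold. NDE2 is among the 32, but it was blank in 7 of 12 wild type and 8 of 12 evolved columns. With those columns set to 10 RPM, its interval cannot exclude a 2-fold change. The exceptions at 1.5-fold were QCR9, NDI1 and NDE2. INH1 was at 489 to 814 RPM in wild type columns and at 486 to 1010 RPM in the evolved columns on xylulose, a difference of 0.30 with an interval from 0.06 to 0.53 (n = 12 a group, limma adjusted p = 0.224), and the groups overlapped. Within cytochrome oxidase COX6 (0.23) and COX7 (-0.01) were the ends, within the bc1 complex QCR9 (0.24) and QCR7 (-0.07), and within the ATP synthase INH1 and ATP3 (-0.04). NDI1 had the largest difference of all, 0.58 with an interval from -0.04 to 1.2 (n = 12 a group, limma adjusted p = 0.385), from a median of 65.6 RPM to 89.8 RPM. NDE2 was lowest at -0.31.

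On glucose 0 of the 33 genes differed between evolved and wild type columns as well, where 2.38% of all genes tested did. The median difference was 0.01 beside 0.17 over all genes, and 1 gene, NDE2, had an unadjusted p under 0.05. The intervals were wider than on xylulose, as the columns were more spread. For 29 of the 33 genes they excluded a change of 2-fold and for 11 a change of 1.5-fold. NDI1 is among the 29, but it was blank in 5 wild type and 4 evolved columns. With those columns set to 10 RPM, its interval cannot exclude a 2-fold change. NDE2 was above 10 RPM in 7 evolved and 4 wild type columns, a difference of 0.88 with an interval from 0.11 to 1.65 (n = 12 a group, limma adjusted p = 0.226). The ends within the complexes were QCR10 (0.53) and QCR6 (-0.35), COX6 (0.36) and COX4 (-0.12), and ATP15 (0.30) and ATP14 (-0.19), and NDE1 was at -0.19. All evolved and wild type groups overlapped for all 33 genes on both sugars. The share of all genes tested that overlapped in this way was not counted.
The change of the sugar difference itself was tested between the evolved and wild type columns. None of the 33 genes was called, where 6.65% of all genes tested were, and 1, NDE2, had an unadjusted p under 0.05. The median change was 0.05 beside -0.20 over all genes, with 20 genes above 0 and 13 below. The interval excluded a change of 2-fold for 30 of the 33 genes, the others being QCR10, NDI1 and NDE2. It excluded a change of 1.5-fold for 11. COX4, COX6, QCR9 and RIP1 are among the 30, but each had a blank wild type column on glucose that was set to 10 RPM. NDE2 had the largest change, -1.19 with an interval from -2.04 to -0.35 (n = 12 a group, unadjusted p = 0.00691, limma adjusted p = 0.0745). It was called when number 4 was left out (adjusted p = 0.0343). The other ends were COR1 (0.29) and QCR10 (-0.48) in the bc1 complex, COX4 (0.26) and COX13 (-0.26) in cytochrome oxidase, INH1 (0.41) and ATP15 (-0.24) in the ATP synthase, and NDI1 (0.69).

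**Figure D5:**
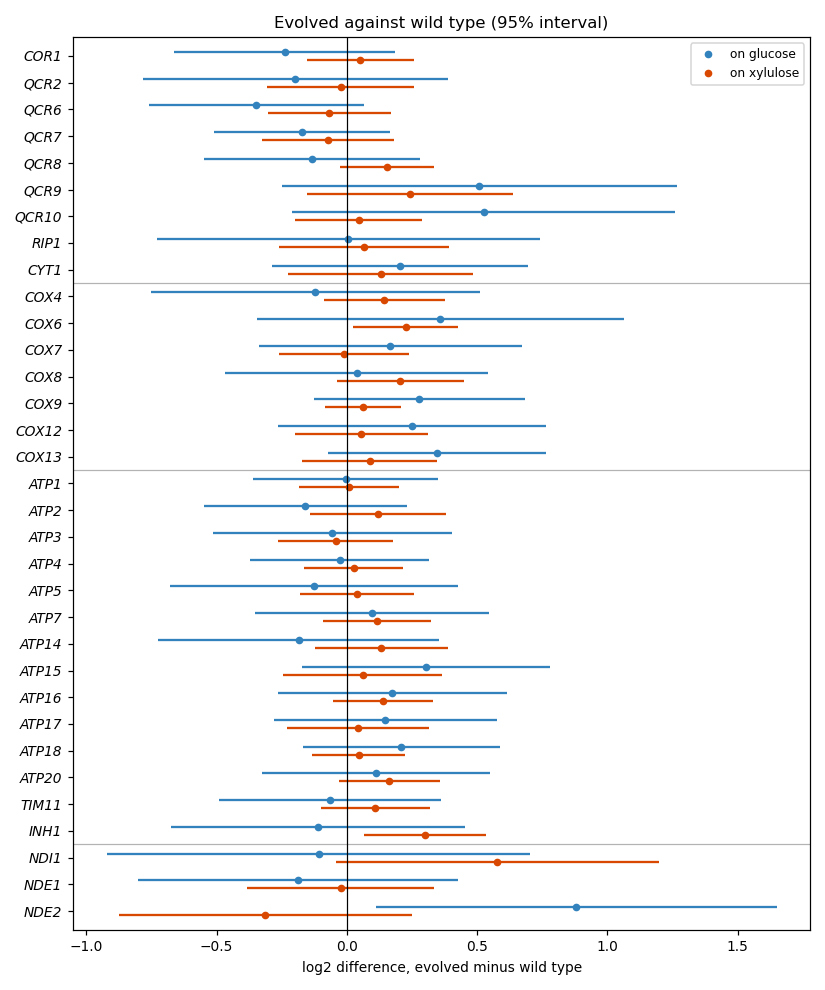
Log2 difference between evolved and wild type columns for each gene, on glucose (blue) and on xylulose (orange), with points at the difference of the means of 12 columns and lines for the 95% interval of limma's fit. Points on xylulose lie close to 0 with short intervals, and NDE2 on glucose (0.88) and NDI1 on xylulose (0.58) lie farthest out.

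Other genes of the same pathway were followed through fixed lists. The counts below stand beside 30.4% of all genes tested that were higher on xylulose in wild type and 24.1% in evolved columns. Lower on xylulose were 483 of the 5129 genes tested in wild type and 801 (15.6%) in evolved columns. The list of further subunits and associated factors (COX26, ATP19, RCF1 and RCF2) rose on xylulose in 4 of 4 cases in both comparisons, with medians of 1.25. RCF1, which helps respiratory supercomplexes to form, rose by 1.29 and ATP19, subunit k of the ATP synthase, by 1.28 in the wild type, and COX26 by 1.89 and ATP19 by 1.38 in the evolved columns. Most assembly factors rose too. Of 8 tested bc1 assembly genes 7 rose and none fell in either comparison, led by CBP3 (2.12) and CYT2, the haem lyase of cytochrome c1 (2.07), in wild type columns and by BCS1, which inserts Rip1 (1.84), and CBP3 (1.62) in the evolved columns. Of 29 cytochrome oxidase assembly genes 22 rose and none fell in wild type columns and 24 rose and none fell in the evolved columns. MAM33 (2.23 and 2.68) and COA2 (2.18 and 2.66) had the largest differences in both. Of 12 ATP synthase assembly genes 9 and 8 rose and 1 fell. ATP12, a chaperone of the alpha subunit, was the largest in both (1.88 and 2.12), with AEP2 (1.87) next in wild type columns and FMC1 (1.92) next in the evolved columns. The gene that fell in both was STF2 (-1.67 and -1.52), which is listed as a stabilizer of the inhibited enzyme and is also known from tolerance of drying.
Of 11 genes of ubiquinone synthesis 3 rose and 1 fell in wild type columns and 4 rose and 1 fell in the evolved columns, with medians of 0.28 and 0.23 beside 0.31 and 0.08 over all genes. COQ2 (1.16) and COQ11 (0.77) were the largest in wild type columns and COQ1 (0.97) and COQ2 (0.61) in the evolved columns, while CAT5, also named COQ7, fell by 1.03 and by 0.45. The call of COQ11 was lost with median-of-ratios scaling (adjusted p = 0.0962). In the test of the change with evolution 1 gene of all these lists was called, where 6.65% of all genes tested were. COX16, a cytochrome oxidase assembly factor, rose by 1.21 in wild type columns and had a difference of 0.25 in the evolved columns (limma adjusted p = 0.322), a change of -0.96 (limma adjusted p = 0.0345, 12 against 12 columns) whose adjusted p was 0.0727 with the labelled replicate block and 0.0542 with the exchanged one. No gene of these lists was called between evolved and wild type columns on either sugar, where 1.58% of all genes tested were on xylulose and 2.38% on glucose. The 7 subunit genes of the mitochondrial genome had no value in any column of this polyA-selected table and were not compared.

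Among the regulators HAP3, a subunit that binds the CCAAT box, rose in both comparisons, from a median of 54.0 to 150 RPM in the wild type (1.43, limma adjusted p = 2.33e-04) and from 62.3 to 179 RPM in the evolved columns (1.33, limma adjusted p = 1.77e-07). HAP4 encodes the activating subunit, whose amount is known to limit the complex. Its median was 56.4 RPM on glucose and 88.3 RPM on xylulose in the wild type, a difference of 0.64 (limma adjusted p = 0.0726), and 65.1 and 110 RPM in the evolved columns, a difference of 0.75 (limma adjusted p = 0.0252). This call was lost with a pseudocount of 1, without a filter and with median-of-ratios scaling (adjusted p = 0.102, 0.0812 and 0.055). The ranges overlapped widely, with HAP4 at 137 RPM in SK1 on glucose, above the highest wild type value of 116 RPM on xylulose. HAP2, HAP5 and HAP1 were not called, with wild type differences of 0.32, 0.76 and 0.02 and evolved differences of 0.02, 0.54 and 0.09. On glucose the correlation of HAP4 with the mean level of the 33 genes was r = 0.31 over the 12 wild type strains and -0.29 without number 7, where HAP4 was blank, and it was -0.20 over the 12 evolved columns, of which number 6 was blank for HAP4. On xylulose it was 0.22 (rho = 0.24) over the wild type and 0.48 (rho = 0.61) over the evolved columns. These values are descriptions.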

How the data were processed

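The authors mapped 50 base reads with Bowtie to S288c (R64), removed rRNA reads, used the UMIs against PCR bias, brought every library to a total of 1000000 and took the mean of the repeats. The deposited unit is log2 RPM, left blank under 10 RPM. The spread between repeats is therefore not in the table. The tests measure the spread between columns of different strains, in which strain, culture and library cannot be told apart. The 5129 genes that averaged 10 RPM or more over the 48 columns, with blanks counted as 0, were kept, all 33 members among them. Blanks were then set to 10 RPM and the genes tested with limma 3.58.1 in R 4.3.3 (trended variance, Benjamini-Hochberg, 0.05, two-sided). The 2 sugars were paired by strain number, which marks the same strain or population; its deviations correlated by over 0.1 in 7 of 12 wild type and 10 of 12 evolved numbers. Evolved and wild type columns were compared unpaired. The code was tested on simulated data. Members and lists were chosen with earlier results of these data known. Named were, in each complex and comparison, the members with the largest and smallest difference, INH1 and the NADH dehydrogenases for the sugars, HAP1 to HAP5, and of each other list the 2 largest called differences in each direction. Alternatives were the blocks, pseudocounts of 10 and 1, blanks left missing, no filter, a mean of at least 50 RPM, median-of-ratios scaling and leaving out each number. A step in the low values was accepted where over 85% of values under 60 RPM lay within 0.004 RPM of its multiples. Motifs were searched on both strands of the 500 bases upstream of coding starts.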

Additional observations from a re-analysis of the deposited data

How the results depend on the processing

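The 32 members higher on xylulose stayed 32 in each comparison when any number was left out, and were 31 in the wild type where blanks were left missing, without a filter and with a mean of at least 50 RPM, which tests 31 members. The median difference ran from 1.63 (without number 7) to 1.86 in the wild type and from 1.78 to 1.91 in the evolved columns when 1 number was left out. Median-of-ratios scaling moved the median of all genes from 0.31 to 0.13 in the wild type and from 0.08 to -0.01 in the evolved columns, the calls over all genes from 1561 higher and 483 lower to 1107 and 688 and from 1235 and 801 to 1019 and 1016, and the median of the members to 1.61 and 1.78. The number of members lower in the evolved columns went from 1 (NDE2) to 0 with a pseudocount of 1, with blanks left missing and with a mean of at least 50 RPM. For evolved against wild type columns and for the change of the sugar difference, no member was called under any other setting, except 1 lower (NDE2) in the change when number 4 was left out, a range of 0 to 1. Those settings include the replicate block by the labelled number, where the medians were 0.05, 0.06 and 0.01 for the change, for xylulose and for glucose and the calls over all genes 25 higher and 254 lower, 0 and 44, and 111 and 3. With evolved numbers 5 to 8 and 9 to 12 exchanged the block gave 77 and 377, 52 and 183, and 158 and 13. The deviations of evolved and wild type columns correlated by over 0.1 in 2 and 3 of 12 numbers on glucose and xylulose as labelled, and in 6 and 10 after the exchange. Without the block by number, the sugar comparisons called 32 higher members in each. Of the 557 values of single genes under alternatives, 543 kept their direction and side of the threshold, 14 lost their call and none reversed. The lost calls were those of NDI1 and COQ11 in the wild type sugar comparison, of NDE2 and HAP4 in the evolved one, and of COX16 in the change with evolution. Depth is unknown in 31 columns, so values near 10 RPM, as for NDE2, NDI1 and HAP2, carry a counting error that could not be given.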

Other observations

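Among the genes outside the 33, those whose log2 RPM followed the mean of the 33 genes most closely over all 48 columns were sought after their values were seen, and the correlations are descriptions that contain the sugar difference. Of the named genes, MIR1, the phosphate carrier of the inner mitochondrial membrane, came first (Pearson r = 0.97), followed by SDH4, a subunit of succinate dehydrogenase (0.97), COX5A (0.96) and PET9, the main ADP/ATP carrier (0.95). MIR1 and PET9 exchange the substrates and product of the ATP synthase. Within single conditions of 12 columns, r was 0.66 to 0.81 for MIR1 and 0.64 to 0.86 for PET9.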
